A study of Homo sapiens with 6 samples.

Results

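RAB genes encode small GTPases that mark the membranes of the secretory and endocytic routes. They were followed here in the human hepatocellular carcinoma line JHH-4 under overexpression of the microRNA miR-885-5p. The members were all genes named RAB plus a number, with letters allowed at the end, and without names that contain IP, GAP or GEF. This gave 49 of the 14034 genes in the count table. RAB5IF follows that naming rule, but its name stands for a RAB5-interacting factor and not for a RAB protein, and the other 48 are RAB GTPases. The annotation (GENCODE 29, GRCh38) holds 65 protein-coding names of this form, and the other 16, among them RAB25, RAB3D and RAB7B, are not analysed here. Of the 14034 genes 12420 matched this annotation, all 49 members among them. The other 1614 are new gene models, and the background of all genes includes them.

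The 6 libraries of JHH-4 RNA fell into 3 from cells with hsa-miR-885-5p overexpressed from a plasmid that carries its primary transcript, labelled miR-885-5p, and 3 from cells of WT genotype, labelled Control. The sources used here do not say what the Control cells were given, so the plasmid itself and the microRNA cannot be told apart. Libraries within a group are described as technical replicates, and every p-value here measures only the spread between such libraries. The microRNA gene MIR885 and its host gene ATP2B2 are not analysed here, and the rise of the microRNA was thus left unmeasured. Library totals ran between 46382314 and 56409821 counts. Of the marker genes of hepatocytes 5 of 12 could be measured, with a summed level of 11.6 to 12.4 FPKM in miR-885-5p cells and 25.4 to 27.6 FPKM in Control cells, while ALB, APOA1, APOB and HNF4A are not analysed here. The epithelial keratins KRT8, KRT18 and KRT19 summed to 1603 to 1683 FPKM in miR-885-5p cells and to 1819 to 1936 FPKM in Control cells. Markers of fibroblasts and endothelium, of which 5 of 8 were measured, summed to 5.65 to 6.27 FPKM in miR-885-5p cells and to 3.00 to 3.63 FPKM in Control cells. CD14 and CD68, the leukocyte markers measured of 5 listed, summed to 62.9 to 64.2 FPKM in miR-885-5p cells and to 57.6 to 66.3 FPKM in Control cells. All libraries come from the line JHH-4, so these markers describe the RNA of that line and not a mix of tissue cell types. The part of these shifts in the RAB results was not tested. Fewer cells of the line that express a marker and less of its RNA per cell cannot be told apart in bulk RNA.

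A RAB protein works as a switch. Exchange factors (GEFs) load it with GTP on a given membrane, where it recruits effectors such as tethers and motor proteins, and GTPase-activating proteins (GAPs) return it to the GDP form. A lipid tail added by prenylation anchors it, and GDI proteins lift it off the membrane for another round. In liver cells these routes carry secreted plasma proteins, surface receptors, lipoproteins and the contents of lysosomes. A microRNA pairs through its seed, bases 2 to 8, mainly with sites in 3′ untranslated regions (UTRs) of messenger RNAs.

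The mature microRNA is shown because its seed defines the sites searched in the RAB genes. Its sequence is from RefSeq (GRCh38.p14, chromosome 3, 10394531 to 10394552, minus strand), with the seed in capitals. The other arm of the hairpin is given for comparison.

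hsa-miR-885-5p: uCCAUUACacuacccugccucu

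hsa-miR-885-3p: aGGCAGCGggguguaguggaua

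Full pairing to the 5p seed is the heptamer GTAATGG (7mer-m8), which becomes the 8mer GTAATGGA when an A follows. The weaker forms are TAATGGA (7mer-A1) and TAATGG (6mer). Only the sense strand of the longest annotated 3′ UTR was searched, each gene was put under its strongest form, and the shorter forms overlap the longer ones. Among RAB genes 1 held an 8mer and 4 had a 7mer-m8 as their strongest form. These 5 genes are shown with 30 bases of GRCh38 sequence on the gene's strand, the last 8 of which are the bases that pair with the seed and the base after them. The pairing bases, and the A after them in RAB30, are in capitals.

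RAB30: gcttagcataactgagggatgaGTAATGGA

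RAB4A: gaacatcacaatttgggaatctGTAATGGt

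RAB36: ctatacatctcttaggacctttGTAATGGt

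RAB8B: aatttaatagagctagctcttgGTAATGGt

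RAB27B: tcctttccagctggttgtggaaGTAATGGc

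The RAB30 site lies at chromosome 11, 82980559 to 82980566 (minus strand), from base 1599 of a 9032-base 3′ UTR. Those of RAB4A (chromosome 1, 229305772 to 229305778), RAB36 (chromosome 22, 23162486 to 23162492), RAB8B (chromosome 15, 63264695 to 63264701) and RAB27B (chromosome 18, 54894334 to 54894340) are on the plus strand. They begin at base 1979 of 2101, 922 of 2786, 1076 of 4163 and 4921 of 6103 of their UTRs.

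The RAB genes changed in both directions. With miR-885-5p 18 of the 49 rose, 8 fell and 23 did not pass the test (edgeR quasi-likelihood test, Benjamini-Hochberg adjusted p under 0.05 over all genes). That is 36.7% higher and 16.3% lower, against a background of 26.3% higher and 26.5% lower among all 14034 genes, so in either direction the share was 53.1% against 52.9%. The rises include RAB31 and RAB40A, which reached 1 CPM (counts scaled by library size), the lower limit of the table, in the miR-885-5p libraries alone and so passed it only through the group where they are higher. Without them, and without the other genes that reached 1 CPM in 1 group only, 16 of 47 RAB genes (34.0%) rose and 8 fell, beside 25.8% and 26.4% of 13790 genes. The median log2 fold change, miR-885-5p over Control, was 0.09 for RAB genes and -0.00 for all genes. Changes were small: the median size of the log2 fold change was 0.19 for RAB genes and 0.24 for all genes. Groups did not overlap for 27 members, where 60.5% of all genes had such groups. A call with a change of at least 1.5-fold, which 8.24% of all genes had upward and 6.89% downward, was made for RAB36 upward and RAB30 downward, and beside them for RAB31 and RAB40A, which passed the limit of the table through the miR-885-5p group alone and support nothing about the family. No RAB gene passed a test against a 1.5-fold change itself, which 493 genes passed upward and 410 downward. The count of falls was 5 without miR-885-5p library 1 or without Control library 1, where 3182 and 3205 of all genes fell. The count of rises was 12 without Control library 1, where 3144 of all genes rose, and 13 without miR-885-5p library 1 (3137) or 2 (3101). In these 3 fits RAB genes exceeded all genes in rises by less than in the main fit. Rises numbered 16 without miR-885-5p library 3 (3270 of all genes), 17 without Control library 2 (3529) and 18 without Control library 3 (3814).

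**Figure D1:**
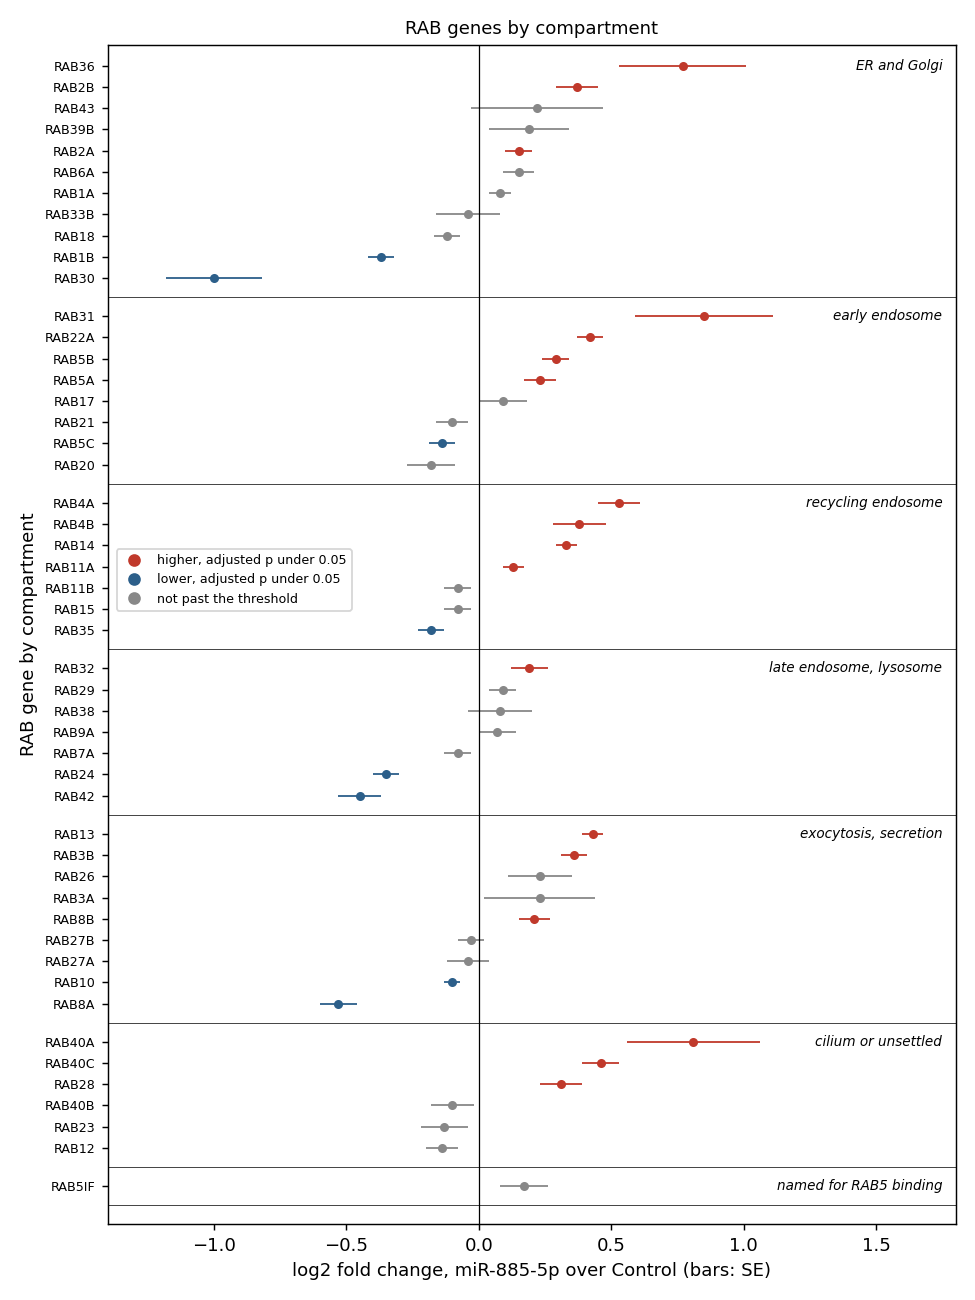
Log2 fold changes (miR-885-5p over Control) of the 49 RAB genes with their standard errors as bars, grouped by the compartment each protein is known for. Red points were higher and blue points lower at an adjusted p under 0.05, grey points did not pass. RAB30 lies furthest left among the falls and RAB31 furthest right at 0.85.

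Among the 11 genes of the endoplasmic reticulum (ER) and Golgi, 3 rose and 2 fell, with a median log2 fold change of 0.15, beside 26.3% higher and 26.5% lower among all genes. RAB30, a Golgi GTPase also tied to autophagy of bacteria (chromosome 11, 82973133 to 83071923), had 2.59, 2.34 and 1.87 CPM (counts scaled by library size with TMM factors) in miR-885-5p libraries and 5.00, 3.90 and 4.73 CPM in Control libraries. The groups were apart. RAB30 fell by 1.00 on the log2 scale (SE 0.18, adjusted p = 0.00121), the deepest fall among the 49 RAB genes. In the authors' FPKM (fragments scaled by library size and gene length) its levels were 0.278, 0.223 and 0.175 with miR-885-5p and 0.782, 0.632 and 0.571 in Control, so the low gene stood at a smaller share of its Control level on that scale. RAB1B, which acts in transport out of the ER (chromosome 11, 66268533 to 66277492), had 182, 179 and 182 CPM with miR-885-5p and 238, 245 and 216 CPM in Control. It fell by 0.37 on the log2 scale (SE 0.05, adjusted p = 1.59e-04), while its close paralog RAB1A had 141, 138 and 140 CPM with miR-885-5p and 132, 127 and 139 CPM in Control (0.08, SE 0.04, adjusted p = 0.157).

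RAB36, placed at the Golgi and on late endosomes (chromosome 22, 23145326 to 23164350), had 2.55, 2.38 and 1.55 CPM with miR-885-5p and 1.26, 1.40 and 1.14 CPM in Control. The third miR-885-5p library lay nearest to Control, and the log2 fold change was 0.77 (SE 0.24, adjusted p = 0.0219). RAB2B and RAB2A, which act between the Golgi and the ER, rose by 0.37 (SE 0.08, adjusted p = 0.00370) and 0.15 (SE 0.05, adjusted p = 0.0225) on the log2 scale. RAB2B averaged 14.7 ± 1.14 CPM with miR-885-5p and 11.4 ± 0.250 CPM in Control (SD, n = 3 each). RAB18, known at the ER and lipid droplets, had 50.8, 51.1 and 49.5 CPM with miR-885-5p and 53.2, 53.8 and 57.4 CPM in Control, groups that were apart although it did not pass the test (-0.12, adjusted p = 0.0653). RAB6A of Golgi retrograde transport (0.15), RAB33B (-0.04), RAB39B (0.19) and RAB43 (0.22) did not pass. The call for RAB36 was lost without miR-885-5p library 1 (adjusted p = 0.0825) or 2 (0.0747) and without Control library 1 (0.0572) or 3 (0.0549), and that for RAB2A without miR-885-5p library 2 (0.0866) or Control library 2 (0.0529). RAB6A was called higher without Control library 2 (0.22, adjusted p = 0.00258), and RAB1A without Control library 3 (0.11, adjusted p = 0.0219).

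Of the 8 genes of the early endosome 4 rose and 1 fell (median 0.16), or 3 and 1 of 7 without RAB31 (median 0.09), where 26.3% of all genes rose and 26.5% fell. RAB5 proteins drive fusion of incoming vesicles with this compartment, and their genes split. RAB5B had 135, 132 and 140 CPM with miR-885-5p and 114, 116 and 103 CPM in Control (0.29, SE 0.05, adjusted p = 8.43e-04). RAB5A had 46.8, 49.0 and 49.5 CPM with miR-885-5p and 41.1, 44.5 and 38.6 CPM in Control (0.23, SE 0.06, adjusted p = 0.0108). RAB5C, the most abundant of the 3, had 272, 277 and 278 CPM with miR-885-5p and 306, 319 and 283 CPM in Control (-0.14, SE 0.05, adjusted p = 0.0307). The groups were apart for all 3 genes, with the closest approach in RAB5C between 278 and 283 CPM.

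RAB22A, which acts in sorting from early to recycling endosomes, had 57.4, 57.9 and 62.1 CPM with miR-885-5p and 45.2, 43.2 and 43.8 CPM in Control (0.42, SE 0.05, adjusted p = 8.30e-05). Its relative RAB31, of transport between the trans-Golgi network and endosomes, was near the lower limit of the table with 1.27, 1.09 and 1.34 CPM with miR-885-5p and 0.525, 0.891 and 0.629 CPM in Control (0.85, SE 0.26, adjusted p = 0.0203). RAB21 of integrin uptake (-0.10), RAB17 of epithelial transcytosis (0.09) and RAB20 (-0.18) did not pass. The limit of 1 CPM makes the difference of RAB31 no support for a change of the family. Without 1 library the call was lost for RAB31 (miR-885-5p 1, adjusted p = 0.0549, or 3, 0.0638, and Control 1, 0.0717, or 3, 0.0516) and for RAB5C (miR-885-5p 1, 0.1, 2, 0.0707, or 3, 0.0684, and Control 1, 0.0969, or 2, 0.0881). Total-count scaling also ended the RAB5C call (adjusted p = 0.115). RAB20 was called lower without miR-885-5p library 2 (-0.27, adjusted p = 0.043).

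Recycling endosome genes held 4 that rose and 1 that fell of 7 (median 0.13), beside 26.3% higher and 26.5% lower among all genes. RAB4 proteins return receptors quickly to the surface, and both genes rose. RAB4A (chromosome 1, 229271062 to 229305894) had 48.0, 52.8 and 51.0 CPM with miR-885-5p and 35.4, 31.0 and 38.5 CPM in Control (0.53, SE 0.08, adjusted p = 3.20e-04). RAB4B had 10.9, 10.6 and 12.7 CPM with miR-885-5p and 8.11, 9.01 and 9.07 CPM in Control (0.38, SE 0.10, adjusted p = 0.00868). In both genes every miR-885-5p library lay above every Control library.

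RAB14, which moves cargo between the Golgi and endosomes, averaged 72.5 ± 2.51 CPM with miR-885-5p and 57.9 ± 0.508 CPM in Control (0.33, SE 0.04, adjusted p = 1.82e-04). RAB11A, of slow recycling, averaged 93.9 ± 2.79 CPM with miR-885-5p and 85.7 ± 1.98 CPM in Control (0.13, SE 0.04, adjusted p = 0.0216). RAB11B averaged 108 ± 2.56 CPM with miR-885-5p and 115 ± 7.76 CPM in Control (-0.08, adjusted p = 0.228). RAB35, which recycles cargo at the plasma membrane, had 61.8, 68.1 and 64.5 CPM with miR-885-5p and 75.5, 72.1 and 72.4 CPM in Control (-0.18, SE 0.05, adjusted p = 0.0115). RAB15 of receptor recycling did not pass (-0.08). The RAB11A call was lost without miR-885-5p library 1 (adjusted p = 0.0878) or 2 (0.0639) or Control library 1 (0.0935), and that of RAB35 without miR-885-5p library 1 (0.061) or Control library 1 (0.0527). RAB11B was called lower without Control library 3 (-0.13, adjusted p = 0.0123).

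Late endosomes, lysosomes and related organelles had 1 gene that rose and 2 that fell of 7 (median 0.07), beside 26.3% and 26.5% of all genes. RAB7A, which directs fusion of late endosomes and autophagosomes with lysosomes, was the third most abundant RAB gene and had 246, 239 and 240 CPM with miR-885-5p and 249, 277 and 238 CPM in Control. These groups overlapped (-0.08, SE 0.05, adjusted p = 0.261). RAB24, a GTPase linked to autophagy (chromosome 5, 177301198 to 177303744), had 32.8, 32.5 and 34.1 CPM with miR-885-5p and 43.7, 40.1 and 42.7 CPM in Control (-0.35, SE 0.05, adjusted p = 4.68e-04). RAB42 (chromosome 1, 28592200 to 28595443) had 11.6, 10.3 and 11.6 CPM with miR-885-5p and 15.6, 14.5 and 15.7 CPM in Control (-0.45, SE 0.08, adjusted p = 0.00109).

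RAB32, of lysosome-related organelles, averaged 41.4 ± 1.30 CPM with miR-885-5p and 36.3 ± 2.87 CPM in Control (0.19, SE 0.07, adjusted p = 0.0330). Its relative RAB38 (0.08), RAB29, a partner of the kinase LRRK2 (0.09), and RAB9A, of return from late endosomes to the Golgi (0.07), did not pass. The call for RAB32 was lost without miR-885-5p library 2 (adjusted p = 0.111) or 3 (0.0804) and without Control library 1 (0.104) or 2 (0.0962). RAB7A was called lower without Control library 3 (-0.12, adjusted p = 0.0412), and RAB29 was called higher under total-count scaling (adjusted p = 0.0439).

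Genes of exocytosis and regulated secretion included the most abundant member, RAB13, and the paralogs RAB8A and RAB8B, which changed in opposite directions. Of these 9 genes 3 rose and 2 fell (median 0.21), beside 26.3% and 26.5% of all genes. RAB13, which carries cargo to cell junctions (chromosome 1, 153981617 to 153986358), had 317, 307 and 322 CPM with miR-885-5p and 246, 227 and 228 CPM in Control. Its log2 fold change of 0.43 (SE 0.04) had the smallest adjusted p of the family, 2.36e-05. RAB8A, of transport to the plasma membrane and cilium (chromosome 19, 16111629 to 16134234), had 52.2, 53.1 and 55.4 CPM with miR-885-5p and 79.1, 84.0 and 69.1 CPM in Control (-0.53, SE 0.07, adjusted p = 1.43e-04). RAB8B had 44.4, 40.5 and 43.4 CPM with miR-885-5p and 34.8, 37.8 and 38.1 CPM in Control (0.21, SE 0.06, adjusted p = 0.0128). For RAB13, RAB8A and RAB8B the groups were apart, and Control library 3 was the Control library nearest to the miR-885-5p libraries in RAB8A and RAB8B.

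RAB3B, of regulated secretion, averaged 84.5 ± 4.49 CPM with miR-885-5p and 65.7 ± 2.13 CPM in Control (0.36, SE 0.05, adjusted p = 2.18e-04), and RAB3A averaged 2.84 ± 0.267 CPM with miR-885-5p and 2.43 ± 0.549 CPM in Control (0.23, adjusted p = 0.390). RAB10, of surface delivery of transporters and membrane proteins, had 188, 195 and 195 CPM with miR-885-5p and 208, 206 and 208 CPM in Control (-0.10, SE 0.03, adjusted p = 0.0278). RAB27A and RAB27B, which dock secretory granules, did not pass (-0.04 and -0.03), nor did RAB26 (0.23). Without miR-885-5p library 1 or Control library 1 the adjusted p of RAB8B was 0.0504 and 0.0583. The RAB10 call was lost without any miR-885-5p library (0.129, 0.0572 and 0.0653 without library 1, 2 and 3), without Control library 1 (0.0914) and under total-count scaling (0.208).

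Among 6 genes of the cilium or with no settled compartment 3 rose and none fell (median 0.10), or 2 of 5 without RAB40A (median -0.10), beside 26.3% and 26.5% of all genes. RAB40 proteins recruit ubiquitin ligases. RAB40C (chromosome 16, 589357 to 629272) had 42.2, 41.2 and 39.9 CPM with miR-885-5p and 30.3, 27.2 and 32.3 CPM in Control (0.46, SE 0.07, adjusted p = 3.59e-04). RAB40A had 1.78, 1.61 and 1.17 CPM with miR-885-5p and 0.714, 0.975 and 0.913 CPM in Control (0.81, SE 0.25, adjusted p = 0.0212), with the third miR-885-5p library closest to Control. RAB28, found at cilia, averaged 19.6 ± 1.02 CPM with miR-885-5p and 15.9 ± 1.06 CPM in Control (0.31, SE 0.08, adjusted p = 0.00683). RAB40B (-0.10), RAB23, a brake on Hedgehog signalling (-0.13), and RAB12 (-0.14) did not pass, nor did RAB5IF (0.17, adjusted p = 0.136). The 1 CPM limit bears on the difference of RAB40A as on that of RAB31. The RAB40A call was lost without miR-885-5p library 1 (adjusted p = 0.0785) or 2 (0.0655) or Control library 1 (0.0739). Without Control library 3, RAB5IF was called higher (0.30, adjusted p = 4.79e-04) and RAB12 lower (-0.19, adjusted p = 0.0211).

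**Figure D2:**
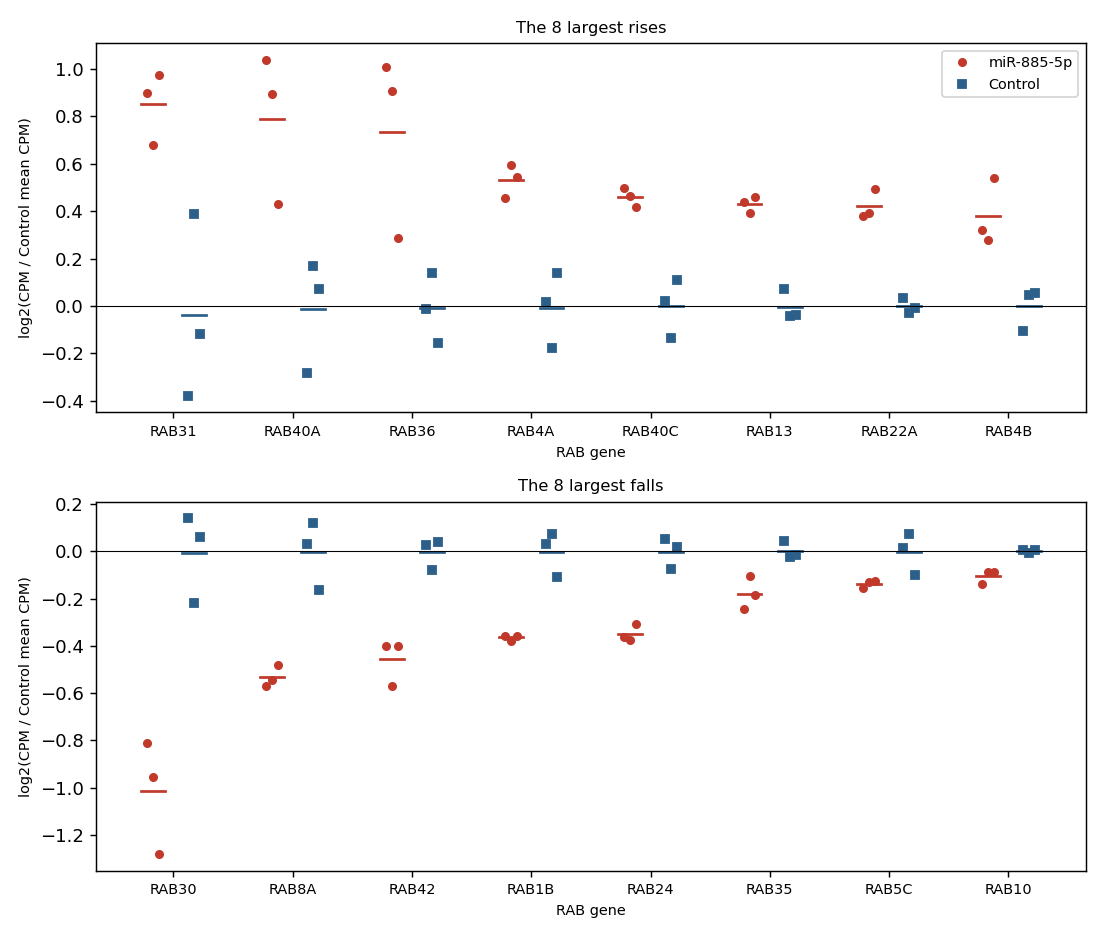
Each library's level as log2 of its CPM over the Control mean CPM of that gene, for the called RAB genes with the 8 largest rises (upper panel) and falls (lower panel). Red circles are miR-885-5p libraries, blue squares are Control libraries and short lines are group means of these log2 values. The libraries of the low genes RAB31, RAB40A and RAB36 scatter more widely than those of RAB13, which had 307 to 322 CPM with miR-885-5p and 227 to 246 CPM in Control.

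Levels between genes were compared per length, in the authors' FPKM. Over the 6 libraries RAB13 averaged 215 FPKM, RAB5C 162 FPKM and RAB7A 102 FPKM. These 3 genes made up 38.3% of the summed mean level of the 49 members, 1251 FPKM, a sum that includes RAB5IF. RAB1B (94.9 FPKM), RAB5IF (94.3), RAB11B (59.8), RAB1A (58.5) and RAB10 (51.9) followed, and the median gene stood at 9.89 FPKM. At the low end RAB36, RAB40A, RAB30 and RAB31 were under 1 FPKM, with RAB31 lowest at 0.232 FPKM. The order of neighbours was often within the spread: RAB1B and RAB5IF overlapped in their libraries, as did RAB11B and RAB1A.

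RAB13 had 250, 248 and 254 FPKM with miR-885-5p and 188, 171 and 177 FPKM in Control. RAB5C had 155, 161 and 155 FPKM with miR-885-5p and 168, 173 and 158 FPKM in Control, groups that overlapped on this scale. RAB7A had 102, 102 and 99.5 FPKM with miR-885-5p and 99.9, 110 and 96.8 FPKM in Control. Summed over the 49 members the level was 1294 ± 11.9 FPKM with miR-885-5p and 1205 ± 7.56 FPKM in Control (SD, n = 3 each). Within these sums RAB13 averaged 251 ± 2.95 FPKM with miR-885-5p and 179 ± 8.52 FPKM in Control. RAB5IF, not a RAB protein, averaged 102 ± 3.76 FPKM with miR-885-5p and 87.0 ± 14.4 FPKM in Control. The sum of the exocytosis genes, which include RAB13, was 355, 357 and 361 FPKM with miR-885-5p and 299, 283 and 286 FPKM in Control. The sum of the ER and Golgi genes was 207, 205 and 205 FPKM with miR-885-5p and 218, 224 and 216 FPKM in Control. FPKM were taken as deposited, without the TMM scaling used for CPM.

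**Figure D3:**
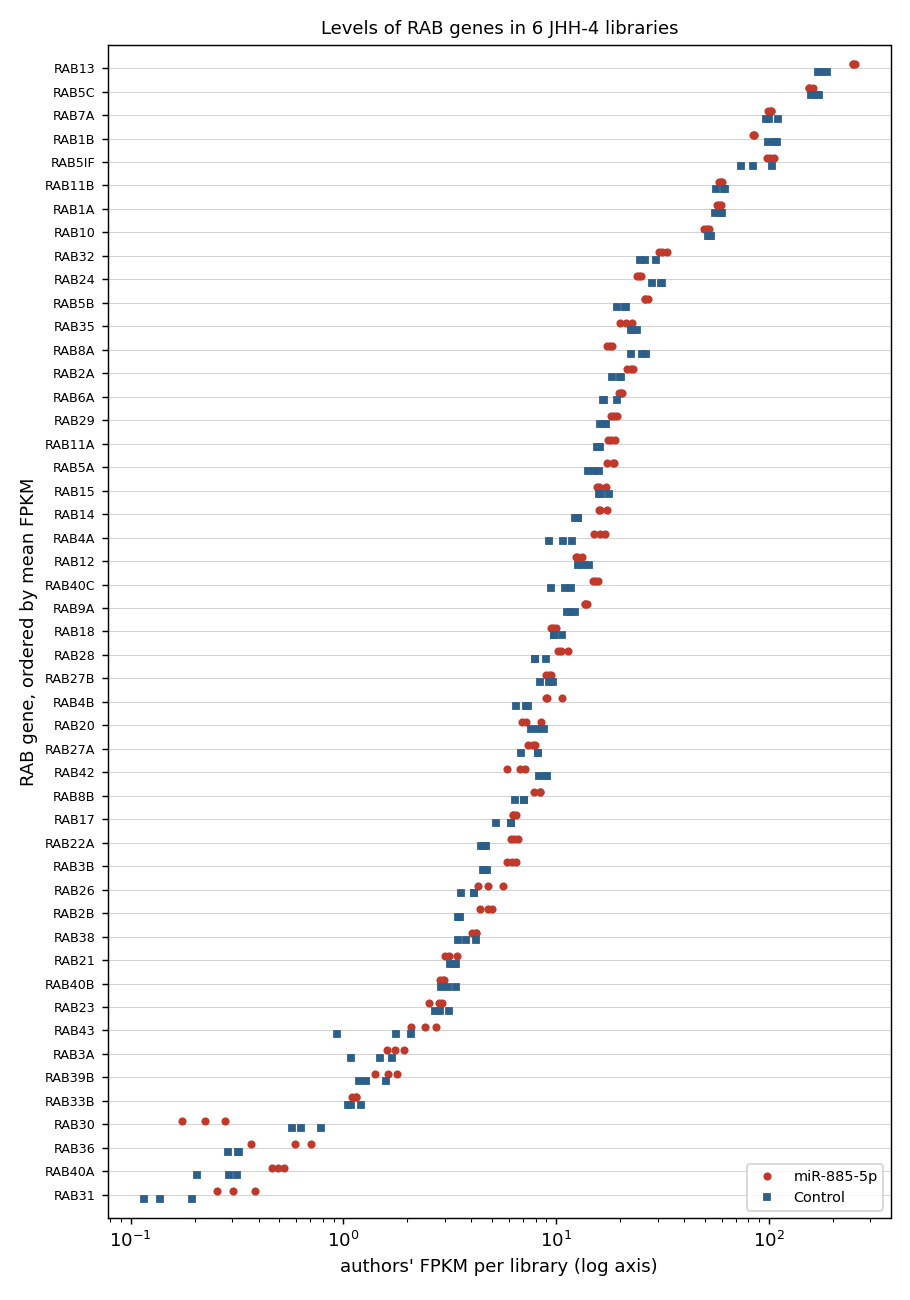
Levels of the 49 RAB genes in FPKM (log axis), ordered by their mean over the 6 libraries, with a point per library for miR-885-5p and Control. RAB13, at a mean of 215 FPKM, stands above the rest, and 4 genes lie under 1 FPKM.

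Genes with the same number and another letter are close paralogs, and 9 such families had several measured genes. In the RAB5 and RAB8 families calls went in both directions, in 5 families (RAB2, RAB3, RAB4, RAB11 and RAB40) every call was higher, in RAB1 the call was lower, and in RAB27 there was none. The tally rests in part on calls that some settings ended, those of RAB5C, RAB8B, RAB2A, RAB11A and RAB40A. In the RAB8 family RAB8A made up 67.4%, 69.7% and 68.6% of the summed FPKM with miR-885-5p and 79.8%, 78.9% and 76.0% in Control. RAB8B thus held 32.6%, 30.3% and 31.4% with miR-885-5p and 20.2%, 21.1% and 24.0% in Control. These shares were apart between groups, and the difference between paralogs was not tested.

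RAB5C held 78.1%, 78.2% and 77.3% of the RAB5 family with miR-885-5p and 82.3%, 82.3% and 82.5% in Control, so it remained the main RAB5 gene. RAB5B held 13.2%, 12.7% and 13.4% with miR-885-5p and 10.3%, 10.1% and 10.1% in Control. RAB1B held 58.6%, 60.0% and 59.2% of the RAB1 pair with miR-885-5p and 65.7%, 64.6% and 62.1% in Control. RAB40C held 82.0%, 82.0% and 81.2% with miR-885-5p and 75.4%, 73.4% and 78.9% in Control. The shares of RAB4A and RAB4B, which rose side by side, overlapped between groups, with RAB4A at 62.8% ± 2.63 with miR-885-5p and 60.2% ± 3.32 in Control (SD, n = 3 each).

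**Figure D4:**
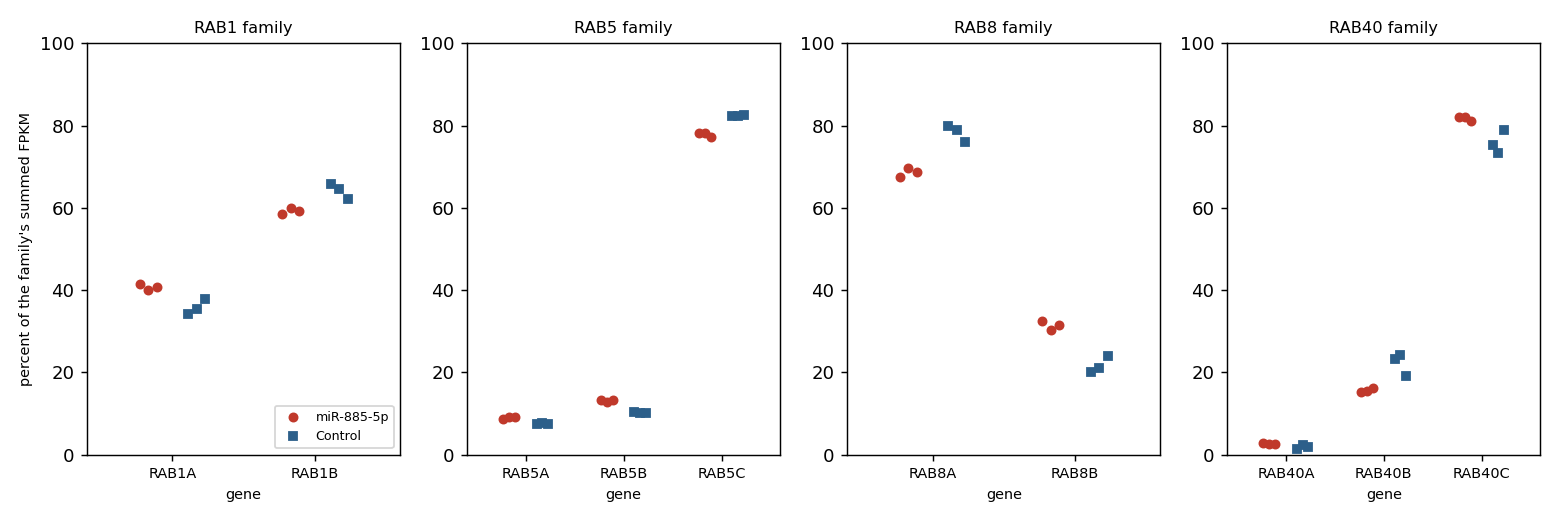
Share of each gene in the summed FPKM of its family, in percent, for the RAB1, RAB5, RAB8 and RAB40 families. Red circles are miR-885-5p libraries and blue squares are Control libraries. RAB8A has shares of 67.4% to 69.7% with miR-885-5p, below its 76.0% to 79.8% in Control.

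The genes with a full seed match moved in different directions. Among the 12308 genes with an annotated 3′ UTR 2.53% held an 8mer as the strongest site, with a median log2 fold change of -0.13, and 5.48% a 7mer-m8, with a median of -0.01. The RAB gene with an 8mer, RAB30, fell by 1.00 on the log2 scale. Of the 4 with a 7mer-m8, RAB4A (0.53), RAB36 (0.77) and RAB8B (0.21) rose. RAB27B had 72.2, 72.2 and 70.3 CPM with miR-885-5p and 68.3, 75.6 and 75.8 CPM in Control and did not pass (-0.03, adjusted p = 0.608). Together 5 of 49 RAB genes had an 8mer or 7mer-m8, beside 8.01% of the 12308 genes with an annotated 3′ UTR. The median UTR searched was 2150 bases in RAB genes and 1390 bases in those 12308 genes.

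RAB30 also held a 7mer-A1 and 3 further 6mers in its long UTR, RAB8B a 7mer-A1 and a 6mer, RAB27B a 7mer-A1 and RAB4A a 6mer. A 7mer-A1 was the strongest form in RAB22A and RAB3B, which rose, and in RAB9A, which did not pass (0.07), and 10 genes had only 6mers. The other 31, among them RAB8A, RAB1B, RAB24 and RAB42, which fell, had none of these motifs in the UTR searched. The heptamer CGCTGCC, which pairs with the seed of the 3p arm, was found in RAB1B, RAB20, RAB35 and RAB5C, and in 5.65% of all genes with a UTR, whose median log2 fold change was 0.02. A match describes the letters of an annotated UTR, and whether these cells use that UTR was not tested.

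Genes whose products act on RAB proteins, are recruited by them or work in the lysosomal route of RAB7 were counted from 5 lists. Each list had more members higher than lower, and the lysosomal list is given further below. The exchange factors had 18 higher and 8 lower of 51 tested (median 0.12), the GAPs 11 and 6 of 38 (0.04), the effectors 27 and 13 of 72 (0.10), and the prenylation and recycling machinery 4 and 2 of 11 (0.01). The 4 rises of the prenylation and recycling machinery include PRAF2, which passed the limit of 1 CPM through the miR-885-5p group. Without miR-885-5p library 2 the exchange factors had 4 lower. The lists were chosen with earlier results of these data known, and their counts stand beside the 26.3% higher and 26.5% lower of all genes as a description.

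**Figure D5:**
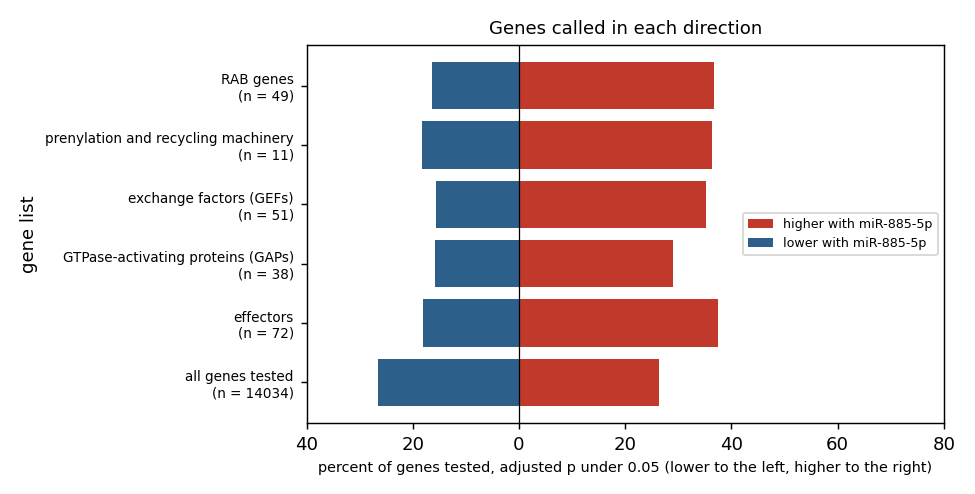
Percent of tested genes with an adjusted p under 0.05 in each list, higher with miR-885-5p to the right in red and lower to the left in blue. RAB genes stand at 36.7% higher and 16.3% lower, and all tested genes at 26.3% and 26.5%. The bars include RAB31, RAB40A and the exchange factor ALS2CL, which reached 1 CPM in the miR-885-5p libraries alone. They also include PRAF2, which reached 1 CPM in all miR-885-5p libraries but not in Control libraries 1 and 2.

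In the machinery that prenylates and recycles RAB proteins, CHML, an escort protein that presents RAB proteins to the prenylating enzyme, had 104, 103 and 108 CPM with miR-885-5p and 132, 137 and 134 CPM in Control (-0.36, SE 0.04, adjusted p = 3.61e-05). The other escort protein gene, CHM, did not pass (0.08), nor did GDI2 (-0.10), which extracts RAB proteins from membranes. RABAC1, a membrane protein of the PRA1 family that binds RAB proteins, had 51.0, 51.5 and 47.0 CPM with miR-885-5p and 31.4, 28.0 and 37.2 CPM in Control (0.63, SE 0.09, adjusted p = 3.39e-04). PDE6D, a carrier of prenylated proteins, had 19.0, 17.3 and 17.9 CPM with miR-885-5p and 13.2, 13.5 and 11.0 CPM in Control (0.53, SE 0.09, adjusted p = 8.80e-04). PRAF2, also of the PRA1 family, was low, at 2.09 ± 0.506 CPM with miR-885-5p and 0.927 ± 0.235 CPM in Control (1.17, SE 0.27, adjusted p = 0.00479). Its miR-885-5p libraries all reached 1 CPM, the lower limit of the table, while Control libraries 1 and 2 had 0.799 and 0.785 CPM. PRAF2 thus passed that limit through the group where it is higher, and its rise supports no change of the list.

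Among exchange factors, ANKRD27, which activates RAB21 and binds RAB32, averaged 57.0 ± 0.952 CPM with miR-885-5p and 76.4 ± 1.51 CPM in Control (-0.42, SE 0.04, adjusted p = 2.47e-05). TRAPPC9 and TRAPPC6A are subunits of TRAPP, the complex that activates RAB1 proteins. TRAPPC9 averaged 12.6 ± 1.43 CPM with miR-885-5p and 7.09 ± 0.276 CPM in Control (0.83, SE 0.10, adjusted p = 1.05e-04), and TRAPPC6A averaged 10.8 ± 1.45 CPM with miR-885-5p and 4.46 ± 0.979 CPM in Control (1.28, SE 0.17, adjusted p = 1.43e-04). DENND4B, an exchange factor for RAB10, rose by 0.30 (SE 0.04, adjusted p = 1.79e-04), while RAB10 itself fell by 0.10 on the log2 scale.

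Among GAPs, RAB3GAP2, whose complex acts on RAB3 proteins and activates RAB18, averaged 75.8 ± 3.60 CPM with miR-885-5p and 50.4 ± 1.49 CPM in Control (0.59, SE 0.05, adjusted p = 9.72e-06). RABGAP1L averaged 20.7 ± 1.83 CPM with miR-885-5p and 10.5 ± 0.890 CPM in Control (0.98, SE 0.09, adjusted p = 1.84e-05), and TBC1D17 rose by 0.48 (SE 0.04, adjusted p = 1.15e-05). TBC1D2, a GAP for RAB7, averaged 47.4 ± 0.426 CPM with miR-885-5p and 68.1 ± 3.76 CPM in Control (-0.52, SE 0.05, adjusted p = 2.45e-05).

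Of the 4 effectors with the smallest adjusted p, RIMS1 and MICAL1 rose and MYO5B and KIF20A fell. RIMS1, a RAB3 effector of the presynaptic release site, had 83.3, 76.4 and 80.4 CPM with miR-885-5p and 37.6, 38.3 and 38.1 CPM in Control (1.07, SE 0.05, adjusted p = 2.08e-07). MICAL1, an oxidase of actin that binds RAB8 and related proteins, had 62.3, 57.3 and 59.0 CPM with miR-885-5p and 27.9, 28.8 and 28.6 CPM in Control (1.06, SE 0.05, adjusted p = 3.22e-07). MYO5B, the myosin motor of RAB11 recycling endosomes, had 61.0, 65.4 and 63.5 CPM with miR-885-5p and 115, 123 and 108 CPM in Control (-0.87, SE 0.05, adjusted p = 1.42e-06). RAB11A and RAB11B, its partners, had log2 fold changes of 0.13 and -0.08. KIF20A, a kinesin first described as a RAB6 binder that also acts in cell division, averaged 67.7 ± 2.01 CPM with miR-885-5p and 109 ± 6.19 CPM in Control (-0.68, SE 0.05, adjusted p = 3.87e-06).

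Of 10 genes of the lysosomal route that RAB7 serves, 5 rose and 1 fell (median 0.12), beside 26.3% and 26.5% of all genes, while RAB7A itself did not pass. LAMP2, a major lysosomal membrane protein, averaged 129 ± 4.46 CPM with miR-885-5p and 101 ± 6.00 CPM in Control (0.36, SE 0.05, adjusted p = 2.39e-04). IGF2R, the receptor that sorts lysosomal enzymes (0.23), and VPS16 (0.26) and VPS18 (0.16) of the tethering complexes at endosomes and lysosomes also rose. The gene that fell was LAMP1, at 144 ± 2.06 CPM with miR-885-5p and 154 ± 2.39 CPM in Control (-0.10, SE 0.03, adjusted p = 0.0406). The count of rises was 3 without miR-885-5p library 1 or 2 or without Control library 1, and the fall was lost when any library but Control library 2 was left out.

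Genes that lie near RAB genes were also measured. When each chromosome was divided at its widest gap between tested genes, 47.1% of the 575 genes on the high-numbered side of chromosome 1 rose and 17.2% fell (median log2 fold change 0.16), and RAB4A, RAB13 and RAB29 lie there. On its low-numbered side 11.0% of 694 genes rose and 55.8% fell (median -0.23), and this side holds RAB42, which fell, and RAB3B, which rose by 0.36. RAB29 on the first side did not pass (0.09). The median was -0.14 on the side of chromosome 5 with RAB24 and within 0.12 of 0 for all other members. Of the named RAB regulators, DENND4B, RAB3GAP2 and RABGAP1L, which rose, and CHML, which fell, also lie on chromosome 1. The part of these shifts in position in the results of RAB genes and regulators was not tested.

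RAB24 shares exon bases on the same strand with MXD3, which fell too (-0.46, SE 0.14, adjusted p = 0.0203). RAB13 shares them with AL358472.6, at 18.0 ± 6.04 CPM with miR-885-5p and 10.1 ± 5.25 CPM in Control (0.83, SE 0.34, adjusted p = 0.0633), a level far under that of RAB13. RAB27A shares them with PIGBOS1, which did not pass (0.28). RAB8A, RAB4A, RAB40C and RAB5C share them with HSH2D, SPHAR, WFIKKN1 and AC099811.2, which are not analysed here, so reads of these members could be shared too. The readthrough genes RAB4B-EGLN2 and ISY1-RAB43 overlap RAB4B and RAB43, and their values scattered widely. RAB4B-EGLN2 averaged 7.90 ± 7.27 CPM with miR-885-5p and 8.23 ± 4.84 CPM in Control, and ISY1-RAB43 averaged 2.93 ± 2.35 CPM with miR-885-5p and 3.17 ± 5.50 CPM in Control (SD, n = 3 each). Reads of RAB2B and TOX4, which overlap on opposite strands, cannot be separated without strand, and TOX4 did not pass (-0.05). The same holds for RAB1A with CEP68, RAB23 with BAG2, RAB3A with MPV17L2 and RAB27A with PIGB, and none of these neighbours passed. Other members overlap genes that are not analysed here. Annotated pseudogenes exist for RAB9A and RAB28 (5 each), RAB11A and RAB5C (2 each), and RAB42 and RAB43 (1 each), so these values are uncertain where reads could be shared.

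The authors' deposited table gives a p-value under 0.05 for 20 RAB genes with a higher and 9 with a lower level in miR-885-5p cells. These cover all 26 called here, with the same sign in each, and 3 more. For those 3 the authors' deposited table gives p = 0.0294 for RAB6A, 0.0369 for RAB5IF and 0.0492 for RAB18. The headers do not say whether these p-values were adjusted for multiple tests. DESeq2 run here on the same counts gave a higher adjusted p, 0.0544 for RAB6A and 0.0666 for RAB5IF. The authors' values thus look unadjusted, and the 3 more genes would then come from a less strict threshold than the one used here.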

How the data were processed

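Total RNA of JHH-4 cells was extracted with a column kit and made into libraries with a NEBNext Ultra RNA kit, per the labels' protocols. The submitters' processing notes list the build GRCh38 (hg38) and the tools StringTie 2.2.1, HISAT2 2.0.4 and DESeq2 1.38.3 without saying what each did. The sources used here do not give the counter, the annotation release or the strandedness. Each deposited count is, per the file headers, a raw whole number. An FPKM value from the authors stands beside each count and was used for levels between genes. The authors' deposited p-value and log2 fold change per gene complete the table, per the file headers.

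The main test of the counts was the quasi-likelihood F test of edgeR 4.0.16 (R 4.3.3) with TMM factors and no covariates, after filterByExpr, which left every gene in, and p-values were adjusted by Benjamini-Hochberg over 14034 genes, with a threshold of 0.05. The script was tested on simulated counts. SE is the size of the log2 fold change over the root of F. CPM are TMM-scaled. Groups come from the titles. Control library 3 stood apart on the second principal component. Alternatives were DESeq2 1.42.0, limma-voom (limma 3.58.1), 3 other scalings, other filters, a replicate block, a test against 1.5-fold and leaving out each library.

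The members and all lists were chosen with earlier results of these data known. Per-library values are given for the 8 largest called rises and falls, the 3 highest genes by FPKM, paralogs called in opposite directions and genes with an 8mer or 7mer-m8. From each list up to 4 members past the threshold with the smallest adjusted p are named. A few others, among them ALS2CL, CHM, GDI2, LAMP1, RAB1A and RAB18, were added after their values were seen.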

Additional observations from a re-analysis of the deposited data

How the results depend on the processing

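Of the 49 RAB genes 31 kept their side of the threshold under every setting run for them, and 16 of the 26 calls held. The test against a 1.5-fold change is left out of these counts and is given below. There were 14 such settings for 44 genes and 13 for the 5 that a minimum of 5 CPM removed, RAB30 among them. No direction of a called gene reversed. DESeq2, limma-voom, RLE scaling and no filter each left 18 higher and 8 lower, upper-quartile scaling 19 and 8, total-count scaling 21 and 6, and a minimum of 5 CPM 16 and 7. Leaving out genes that reached 1 CPM in 1 group only, an alternative chosen after seeing the data, gave 16 and 8. The replicate numbers did not pair the libraries: deviations from the group means of same-numbered libraries had correlations of -0.184, -0.0575 and -0.15, and no library correlated best with its own number. With the number as a replicate block 15 were higher and 6 lower. That fit ended the calls of RAB10, RAB11A, RAB2A, RAB32 and RAB5C, and 3 lysosomal genes were then higher and 0 lower. Leaving out each library in turn gave 12 to 18 higher and 5 to 11 lower, with 5 lower without miR-885-5p library 1 or Control library 1 and 11 lower without Control library 3. The exchange factors had as few as 4 lower without miR-885-5p library 2, and the lysosomal genes 3 to 5 higher and 0 to 1 lower. The fall among lysosomal genes was also lost under DESeq2, upper-quartile and total-count scaling and the minimum of 5 CPM, with 0 lower in each. The median log2 fold change of RAB genes was 0.091, and became 0.105 under upper-quartile scaling, 0.140 under total-count scaling and 0.078 to 0.116 with a library left out. Against a 1.5-fold change 0 RAB genes, 0 prenylation genes and 0 lysosomal genes passed in either direction, 2 exchange factors, 1 GAP and 2 effectors were higher, 0 exchange factors, 0 GAPs and 1 effector were lower, and 493 genes were higher and 410 lower in all. Fewer counts limit RAB30, RAB31, RAB36, RAB3A and RAB40A, which had means under 5 CPM.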
